A study of Homo sapiens with 6 samples.

Results

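The AP-1 subunit genes were the 10 genes *FOS*, *FOSB*, *FOSL1*, *FOSL2*, *JUN*, *JUNB*, *JUND*, *ATF3*, *BATF* and *BATF3*, chosen by name. Their accessible sites were those within 1 kb of any of their transcription start sites (TSSs), in the gene body, or within 50 kb of the gene. This gave 201 sites of 166021 in all, where a site is the merged interval of overlapping peak regions from the 6 libraries, and 6 of the 201 lay in the windows of both *ATF3* and *BATF3*. The assay was ATAC-seq, in which the Tn5 transposase cuts and tags DNA not covered by nucleosomes, and the cells were HLF, a human line established from a liver cancer. The cells were grown in DMEM with serum and received DMSO, the vehicle (n = 3 libraries), or 5 μM SNDX-5613 (n = 3), an inhibitor of the contact between menin and MLL1, for 24 h per the labels, and all 6 libraries had the same batch label. The study's methods describe a treatment of several days for this assay, so the duration is uncertain. Per the study's methods, a replicate was a dish of cells divided between the treated and untreated groups, so p-values measure the spread between such dishes of this line. The comparison asked whether menin inhibition changed accessibility at these loci.

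AP-1 is a dimer of basic leucine zipper (bZIP) proteins that binds a palindromic 7-base element, TGACTCA on one strand and TGAGTCA on the other. The FOS proteins do not form stable dimers with themselves and pair with JUN proteins, which can also pair with each other. ATF3 and the BATF proteins are related bZIP proteins that join JUN partners, and dimers with ATF members also bind the cAMP response element (CRE), TGACGTCA. *FOS* and *FOSB* are immediate early genes, induced within minutes of growth factor or stress signals through serum response factor (SRF) at CArG boxes and through CREB or ATF proteins at CREs. In liver, JUN is known for its part in hepatocyte proliferation and tumour formation.

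Promoters of *FOS*, *JUN* and *JUND* are shown with 201 bases around the summit, the base of the strongest peak signal, because their summits lay on or near such elements. The sequences are hg38, on the strand of the gene, and capitals mark AP-1 elements, CREs, the CRE-like letters TGACATCA, CCAAT boxes and CArG boxes.
FOS promoter, chr14:75278417-75278617, plus strand: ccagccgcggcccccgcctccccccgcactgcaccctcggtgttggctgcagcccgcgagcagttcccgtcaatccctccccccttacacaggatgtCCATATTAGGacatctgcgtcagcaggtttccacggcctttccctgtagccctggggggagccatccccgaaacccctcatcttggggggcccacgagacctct
JUN promoter, chr1:58784076-58784276, minus strand: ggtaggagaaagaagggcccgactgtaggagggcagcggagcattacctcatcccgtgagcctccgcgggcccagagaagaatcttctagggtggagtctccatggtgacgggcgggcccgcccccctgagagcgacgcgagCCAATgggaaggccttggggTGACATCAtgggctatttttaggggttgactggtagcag
JUND promoter, chr19:18281682-18281882, minus strand: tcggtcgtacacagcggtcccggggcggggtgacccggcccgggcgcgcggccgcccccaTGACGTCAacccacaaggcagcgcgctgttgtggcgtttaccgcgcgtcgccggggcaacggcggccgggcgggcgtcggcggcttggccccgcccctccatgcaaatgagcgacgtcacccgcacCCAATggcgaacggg
At *FOS* the CArG box began 3 bp before the summit and so contained it. At *JUN* a CCAAT box began 42 bp and the CRE-like element 62 bp after the summit. At *JUND* a CRE began 40 bp before and a CCAAT box 86 bp after the summit.

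Some distal or neighbouring sites are shown in the same way with 101 bases, because their summits lay near AP-1 elements and they were either among the strongest sites of their locus or the site with the smallest p-value.
JUN locus, 56.5 kb downstream, chr1:58727512-58727612, minus strand: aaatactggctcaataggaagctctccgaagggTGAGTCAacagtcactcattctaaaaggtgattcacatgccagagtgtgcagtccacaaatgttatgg
FOSB locus, 12.1 kb upstream, chr19:45455874-45455974, plus strand: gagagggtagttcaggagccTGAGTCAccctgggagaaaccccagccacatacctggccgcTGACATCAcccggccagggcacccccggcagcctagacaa
FOSL1 locus, 15.3 kb upstream, chr11:65915822-65915922, minus strand: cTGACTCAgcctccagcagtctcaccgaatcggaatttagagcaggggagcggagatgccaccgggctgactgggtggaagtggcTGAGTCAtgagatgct
ATF3 locus, 6.27 kb upstream, chr1:212559013-212559113, plus strand: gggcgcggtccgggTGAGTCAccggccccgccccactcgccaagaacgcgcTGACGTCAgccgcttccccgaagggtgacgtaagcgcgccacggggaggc
The first lay in an intron of the noncoding RNA gene ENSG00000283445, the second in an intron of *ERCC1*, the third between genes, and the fourth at the promoters of the noncoding RNA genes ENSG00000260805 and ENSG00000288007. The *FOSL1* upstream site held an AP-1 element on each side of its summit, and the *ATF3* upstream site held an AP-1 element and a CRE.

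The peak lists held 88026, 113675 and 96392 regions in DMSO and 107347, 96910 and 40568 in SNDX-5613. The last of these, SNDX-5613 replicate 3, reached 41.9% of the median of the other 5 libraries, and its ranks correlated less with theirs (Spearman rho 0.854 to 0.876 over sites) than theirs did with each other (0.934 to 0.966). Whether peaks missing from this library were missing through its depth was not tested, and results are given with and without it. Each site was described by its percentile, its rank by −log10 p (the significance of the peak over local background) within a library among the 33405 sites that every library called, where 100 is the strongest. A percentile gives a site's place relative to other sites and not an absolute amount of open chromatin. Markers fixed for this comparison did not show a hepatocyte pattern, since 0 of 6 hepatocyte promoters (*ALB*, *APOA1*, *TTR*, *HNF4A*, *SERPINA1*, *APOB*) had a peak in all 6 libraries and 3 had one in any library. All 6 mesenchymal promoters (*VIM*, *FN1*, *CDH2*, *ZEB1*, *AXL*, *SPARC*) had a peak in all 6. The promoters of the blood cell markers *PTPRC*, *CD3E* and *SPI1* had none in any library. For comparison, 12692 of 20007 protein-coding genes had a promoter site in all 6 libraries and 15978 in any.

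A promoter site was present in every library at 9 of the 10 genes, and *BATF* had none in any. Over all protein-coding genes, 12692 of 20007 had one in every library. In DMSO the mean percentile of the strongest promoter site was highest at *JUN* (89.7 ± 4.34, SD, n = 3), followed by *ATF3* (86.0 ± 2.82), *FOSL2* (83.8 ± 1.48), *FOSL1* (77.3 ± 6.78), *JUND* (68.5 ± 9.72), *FOS* (65.8 ± 0.984), *FOSB* (61.1 ± 3.70), *JUNB* (55.7 ± 9.60) and *BATF3* (55.0 ± 6.53). Each pair of neighbours in this order had overlapping DMSO values. The median over promoters of all protein-coding genes with a site in all 6 libraries was 81.3, so the promoters of *JUN*, *ATF3* and *FOSL2* lay above it and the other 6 below. Over all 6 libraries, 74.8% of protein-coding promoters ranked below that of *JUN*, and 16.5% below that of *JUNB*. Between treatments, 0 of the 9 promoters passed limma at an adjusted p of 0.05 and 1 (*FOS*) had an unadjusted p under 0.05, against 0.205% and 8.7% of 12692 protein-coding promoters. By rank alone, the groups did not overlap at *FOS*, which was lower, and *ATF3*, which was higher. By the same criterion 7.55% of these promoters were lower and 7.13% higher, so 1 of 9 in each direction was near the background.

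**Figure D1:**
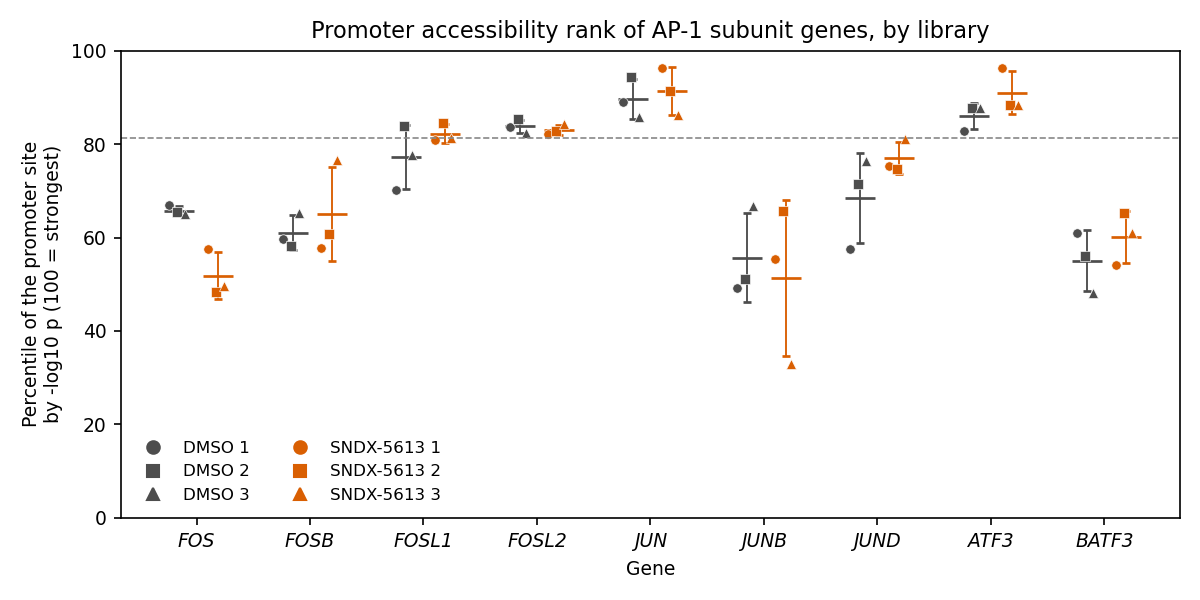
Percentile of the strongest promoter site (y axis, 100 is the strongest of 33405 sites) for each gene (x axis). Points are libraries, horizontal bars and whiskers are group means ± SD (n = 3), and the dashed line is the DMSO median of all protein-coding promoters, 81.3. The 3 SNDX-5613 points of *FOS* lie between 48.3 and 57.5, below the 3 DMSO points, while the groups overlap at 7 of the other 8 genes.

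Among the FOS family, *FOS* had the promoter with the largest difference of the 9 when ranked by −log10 p, but not when ranked by fold enrichment, where it was -7.98 points against 18.2 at *ATF3*. By fold, the median percentile over the 71 sites called in every library was also higher in SNDX-5613, by 7.77 points. The *FOS* site, chr14:75278359-75279164, had its summit 309 bp upstream of the nearest TSS. Its percentiles were 66.9, 65.4 and 65.0 in DMSO and 57.5, 48.3 and 49.7 in SNDX-5613. All 3 treated libraries lay below all 3 controls, by 13.9 points on average (two-sided exact permutation p = 0.1, the smallest that 3 against 3 libraries allow). The unadjusted limma p was 0.0247 and the adjusted p over all 33405 sites was 0.432, so the difference did not pass. Fold enrichment over background showed the same order, at 9.36, 9.87 and 8.55 in DMSO and 7.75, 5.82 and 5.59 in SNDX-5613. Ranked among the 59986 sites of the 5 deeper libraries, the values were 81.3, 80.6 and 80.3 in DMSO and 75.8 and 70.0 in SNDX-5613 replicates 1 and 2, so the groups did not overlap without SNDX-5613 replicate 3 either. The *FOS* difference was negative under all 13 alternative settings, from -16.8 to -7.83, the latter without SNDX-5613 replicate 3, with adjusted p from 0.276 to 0.889. Among these settings, the replicate block and array weights cannot change a difference, and 3 kb promoters kept the same *FOS* site. A second *FOS* promoter site, chr14:75281023-75281358, was weak and called in SNDX-5613 replicates 1 and 2 only.

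*FOSB*, the closest relative of *FOS*, had overlapping groups. Its strongest promoter site had percentiles of 59.8, 58.2 and 65.3 in DMSO and 57.9, 60.7 and 76.5 in SNDX-5613. The highest value was that of SNDX-5613 replicate 3, and the adjusted p was 0.839. A second *FOSB* promoter site, chr19:45468958-45470668, had percentiles of 41.0, 67.8 and 66.5 in DMSO and 64.6, 50.5 and 66.8 in SNDX-5613, with a wider spread within DMSO than between the groups.

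*FOSL1*, which encodes FRA1, is a FOS family member known for roles in invasive tumour cells. Its promoter site, chr11:65899279-65900760, was the longest of the 9 at 1482 bp and had percentiles of 70.3, 83.8 and 77.8 in DMSO and 80.9, 84.6 and 81.2 in SNDX-5613 (adjusted p = 0.722). Of the 9 strongest promoter sites, that of *FOSL2*, which encodes FRA2, was the steadiest over the 6 libraries. This site, chr2:28392098-28393144, had percentiles of 83.7, 85.3 and 82.4 in DMSO and 82.1, 82.9 and 84.3 in SNDX-5613, a difference of -0.726 points (adjusted p = 0.954). A second *FOSL2* promoter site, chr2:28391697-28391826, was called in DMSO replicates 1 and 2 only. The groups overlapped at the strongest promoter sites of both genes.

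The JUN family supplies the partner that FOS proteins need. The *JUN* promoter site, chr1:58783492-58784713, lay 128 bp upstream of the TSS and also within 1 kb of the TSS of the divergent noncoding gene *LINC01135*. Its percentiles were 89.0, 94.4 and 85.8 in DMSO and 96.4, 91.4 and 86.2 in SNDX-5613, with overlapping groups and a difference of 1.63 points (adjusted p = 0.855). *JUND*, a JUN member expressed widely and steadily, had percentiles of 57.6, 71.4 and 76.4 in DMSO and 75.4, 74.8 and 81.1 in SNDX-5613 at chr19:18281178-18282248 (adjusted p = 0.602). The lowest *JUND* value was DMSO replicate 1, and the other 2 controls lay close to the treated libraries. The *JUND* difference of 8.60 points was 3.13 without that control and 3.96 without SNDX-5613 replicate 3.

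*JUNB*, which can antagonise JUN, had the most variable promoter. At chr19:12791279-12791934 its percentiles were 49.2, 51.2 and 66.7 in DMSO and 55.5, 65.6 and 32.9 in SNDX-5613 (adjusted p = 0.880). SNDX-5613 replicate 3 was the lowest of the 6, and the difference changed sign without it, from -4.40 to 3.37 points.

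*ATF3* is a stress-induced bZIP gene. GENCODE lists several TSSs for it, and it had 3 promoter sites. The strongest was the internal one at chr1:212608091-212609025, 124 bp upstream of a TSS, whereas no site lay within 1 kb of its most upstream TSS. Of the others, chr1:212613648-212613814 was called in 3 DMSO libraries and 1 SNDX-5613 library, and chr1:212609423-212609600 in 1 of each. The percentiles of the strongest *ATF3* site were 82.8, 87.7 and 87.7 in DMSO and 96.4, 88.5 and 88.3 in SNDX-5613. All 3 treated libraries lay above all 3 controls, but 2 of them by less than 1 point over the highest control (difference 5.01, two-sided exact permutation p = 0.1, adjusted p = 0.564). Without SNDX-5613 replicate 1, the highest of the 6, the difference was 2.34 points, and without DMSO replicate 1, the lowest, it was 3.33.

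*BATF* and *BATF3* are best known from lymphoid and dendritic cells. *BATF* had no site within 1 kb of a TSS in any library, as did 20.1% of 20007 protein-coding genes, and its only gene body site, in an intron, was called in DMSO replicate 3 alone. The nearest upstream site, 3.53 kb from the TSS, was called in DMSO replicate 1 and in SNDX-5613 replicates 1 and 2. *BATF3* had an open promoter, chr1:212699081-212700108, in all 6 libraries, at percentiles of 61.0, 56.0 and 48.0 in DMSO and 54.2, 65.2 and 61.0 in SNDX-5613 (adjusted p = 0.80).

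The loci differed in how many sites they held. *FOSL1* had the most sites, 30, followed by *ATF3* with 28, *JUNB* with 26, *FOSL2* with 23, *FOSB* and *JUND* with 21 each, *JUN* with 20, *BATF3* with 16, *FOS* with 14 and *BATF* with 8. Of the 201 sites, 16 were at promoters of the members, 17 in their gene bodies and 168 in the flanks, where 46 were at promoters of other genes. A peak in all 6 libraries was found at 71 sites, or 35.3% against 20.1% of all sites, and 48 were called in 1 library only. Consensus sets of both groups held 133 of the sites, the DMSO set alone 4 and the SNDX-5613 set alone 8. The matching shares over all sites are not given, so these counts were not read as gain or loss.

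The number of peak regions at the 10 loci was 151, 161 and 149 in DMSO and 158, 150 and 78 in SNDX-5613. Group means were 153.7 ± 6.43 and 128.7 ± 44.1 (SD, n = 3 each), and SNDX-5613 replicate 3 alone lay below the other 5 libraries. When only the 40568 top regions of each library were kept, the numbers were 76, 82 and 83 in DMSO and 77, 78 and 78 in SNDX-5613. The *FOSL1* locus alone had fewer regions in every treated library, with 28, 28 and 29 in DMSO and 25, 24 and 11 in SNDX-5613 (two-sided exact permutation p = 0.1). By this criterion 5.24% of 20033 protein-coding loci, counted by gene identifier, were lower and 0.265% higher. At the equal number of regions the *FOSL1* groups overlapped, at 12, 14 and 15 against 14, 12 and 11. *JUNB* was then the locus with fewer regions in every treated library, with 13 in each DMSO library against 10, 12 and 10, a criterion met downward by 2.33% and upward by 1.93% of protein-coding loci.

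**Figure D2:**
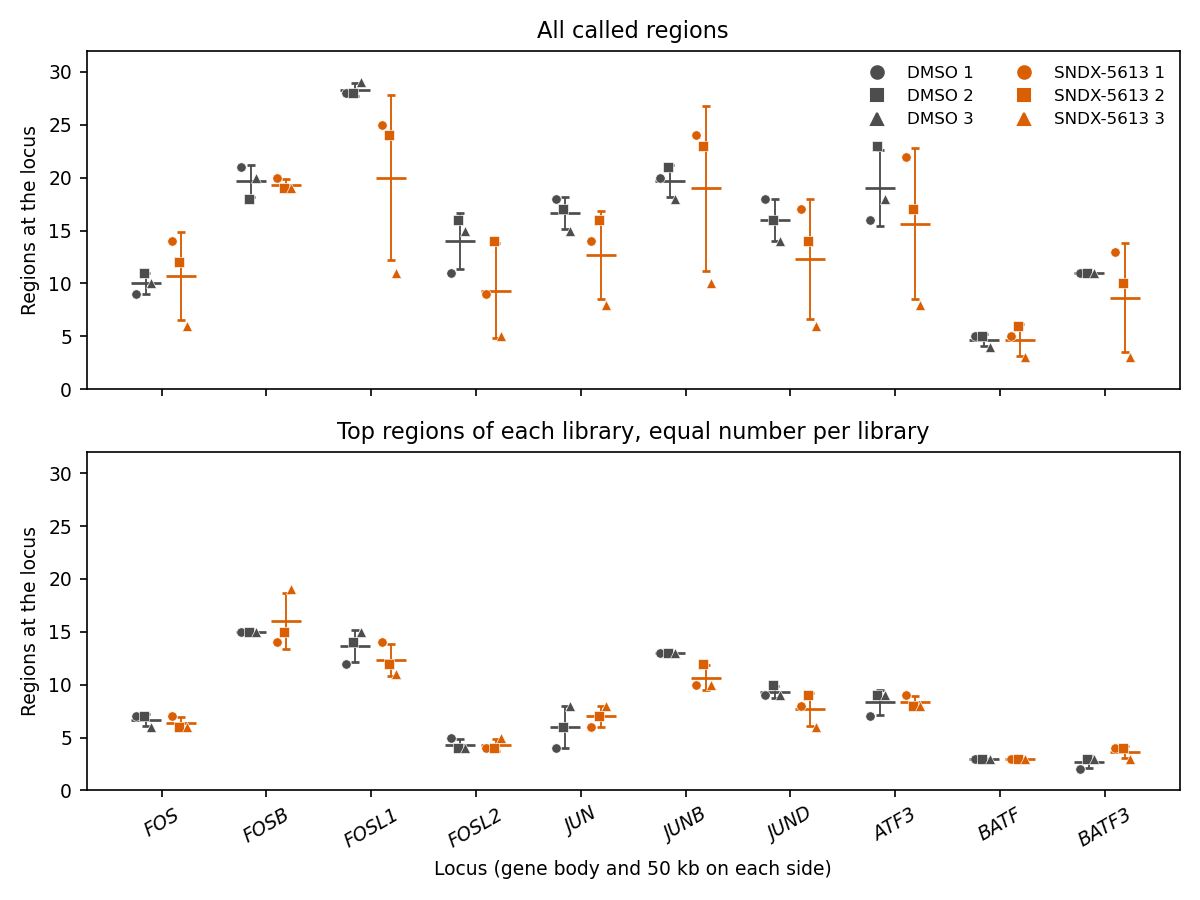
Number of peak regions (y axis) at each locus (x axis), for all called regions (top) and for the 40568 top regions of each library (bottom). Points are libraries, and bars and whiskers are group means ± SD (n = 3). SNDX-5613 replicate 3 is the lowest point at 9 of the 10 loci in the top panel and the highest point at *FOSB* in the bottom panel.

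Over the 71 sites called in every library, the median percentile was 57.6, 63.9 and 62.2 in DMSO and 63.0, 61.2 and 61.0 in SNDX-5613. The group means of these medians differed by 0.464 points, less than the SD of 3.27 within DMSO. By limma, 0 sites were higher and 0 lower at an adjusted p of 0.05, against 0.195% and 0.0269% of all 33405 sites, and the smallest adjusted p at the loci was 0.356. An unadjusted p under 0.05 was reached by 2 of the 71 sites, or 2.82%, against 10.1% of all sites. The groups did not overlap at 3 sites that were higher and 4 that were lower, or 4.23% and 5.63%, against a background of 8.54% and 8.08%. Sites with separated groups were thus no more frequent at these loci than elsewhere.

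**Figure D3:**
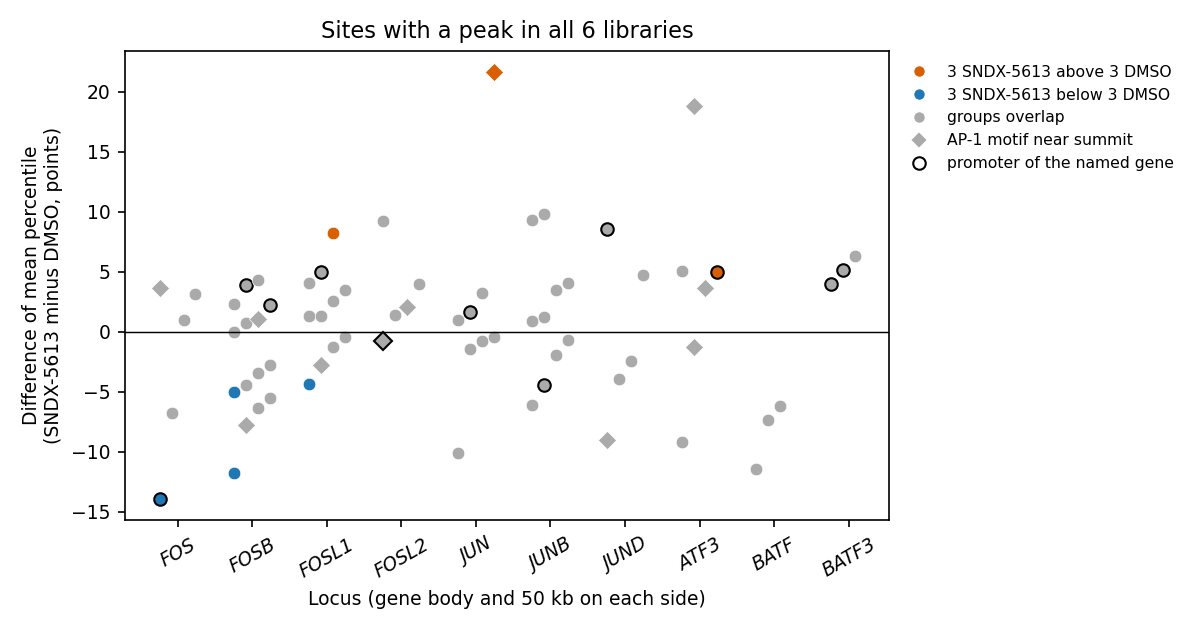
Difference of group mean percentiles, SNDX-5613 minus DMSO in points (y axis), for the 71 sites called in every library, by locus (x axis), with sites shared by *ATF3* and *BATF3* drawn once. Colours mark the 3 sites whose treated libraries all lie above and the 4 whose treated libraries all lie below the controls, diamonds an AP-1 element within 100 bp of the summit, and black outlines promoters of the named gene. The JUN downstream site (21.6 points) and the FOS promoter (-13.9 points) are the extremes.

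The site with the smallest p-value was the one 56.5 kb downstream of the *JUN* TSS, chr1:58727275-58727781, whose sequence with 1 AP-1 element is shown among the distal sites. Its percentiles were 37.9, 22.8 and 20.2 in DMSO and 48.2, 40.8 and 56.9 in SNDX-5613. Every treated library was higher than every control, by 21.6 points on average (two-sided exact permutation p = 0.1). The limma p was 0.00974 before and 0.356 after adjustment. Without SNDX-5613 replicate 3 the groups still did not overlap, at 60.7, 45.9 and 43.3 against 69.7 and 64.6. An intronic *ATF3* site with an AP-1 element, chr1:212566575-212567529, had a difference of 18.9 points, but its groups overlapped. SNDX-5613 replicate 3 was the highest, at 71.1, with the other libraries between 27.7 and 45.3. The mean of SNDX-5613 replicates 1 and 2 lay 7.88 points above that of DMSO.

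Other sites with separated groups were mostly near other genes. A site 2.77 kb upstream of *FOSL1*, chr11:65903019-65903533, had percentiles of 55.8, 67.3 and 60.1 in DMSO and 71.1, 67.6 and 69.3 in SNDX-5613, where the gap between the nearest libraries was under 1 point. In the *FOSL1* window the promoter of *EFEMP2*, an extracellular matrix gene, had 82.8, 82.8 and 82.7 in SNDX-5613 against 82.9, 87.6 and 90.8 in DMSO. In the *FOSB* window a promoter of *ERCC1*, a DNA repair gene, had 65.1, 65.9 and 67.7 against 73.4, 68.1 and 72.3 in DMSO. A *VASP* intron site 38.4 kb downstream of *FOSB*, chr19:45509278-45509683, had 12.7, 13.9 and 12.0 against 20.7, 23.4 and 29.9 in DMSO. Adjusted p-values of these 4 sites were 0.611, 0.648, 0.740 and 0.515.

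The strongest distal site of each locus, outside any promoter, had overlapping groups. The *FOSB* site 12.1 kb upstream, chr19:45455582-45456514, was the strongest of these, at 92.4, 97.4 and 92.2 in DMSO and 93.3, 95.1 and 96.8 in SNDX-5613, above the *FOSB* promoter in every library. The *FOSL1* site 15.3 kb upstream had 87.3, 81.2 and 73.6 in DMSO and 78.4, 83.3 and 71.8 in SNDX-5613. At *JUND* a site 47.0 kb upstream had 79.8, 79.4 and 81.2 in DMSO and 72.8, 79.7 and 80.6 in SNDX-5613. At *JUN* a site 32.4 kb upstream, in an intron of *LINC01135*, had 67.6, 68.5 and 71.5 in DMSO and 71.5, 72.6 and 59.2 in SNDX-5613. This held for these 4 and also at the strongest distal sites of *FOS*, *FOSL2*, *JUNB*, *ATF3* and *BATF*, with adjusted p from 0.627 to 0.952 over these 9 sites, and *BATF3* had no such site called in every library. The *ATF3* upstream site with an AP-1 element and a CRE had 84.1, 88.9 and 82.2 in DMSO and 85.8, 81.9 and 83.6 in SNDX-5613.

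The strong sites on either side of *FOS* had overlapping groups. A site 19.7 kb upstream, at the promoters of 2 noncoding RNA genes, had percentiles of 94.5, 89.8 and 87.8 in DMSO and 92.4, 91.6 and 91.3 in SNDX-5613. The *LINC01220* promoter downstream of *FOS* had 79.9, 88.1 and 90.5 in DMSO and 88.0, 91.3 and 88.9 in SNDX-5613. The site next to the promoter, 1.62 kb upstream, was weaker, with 21.6, 34.7 and 36.7 in DMSO and 38.5, 22.1 and 12.3 in SNDX-5613. Its groups overlapped too. Whether the promoter differed from these sites in its change was not tested.

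**Figure D4:**
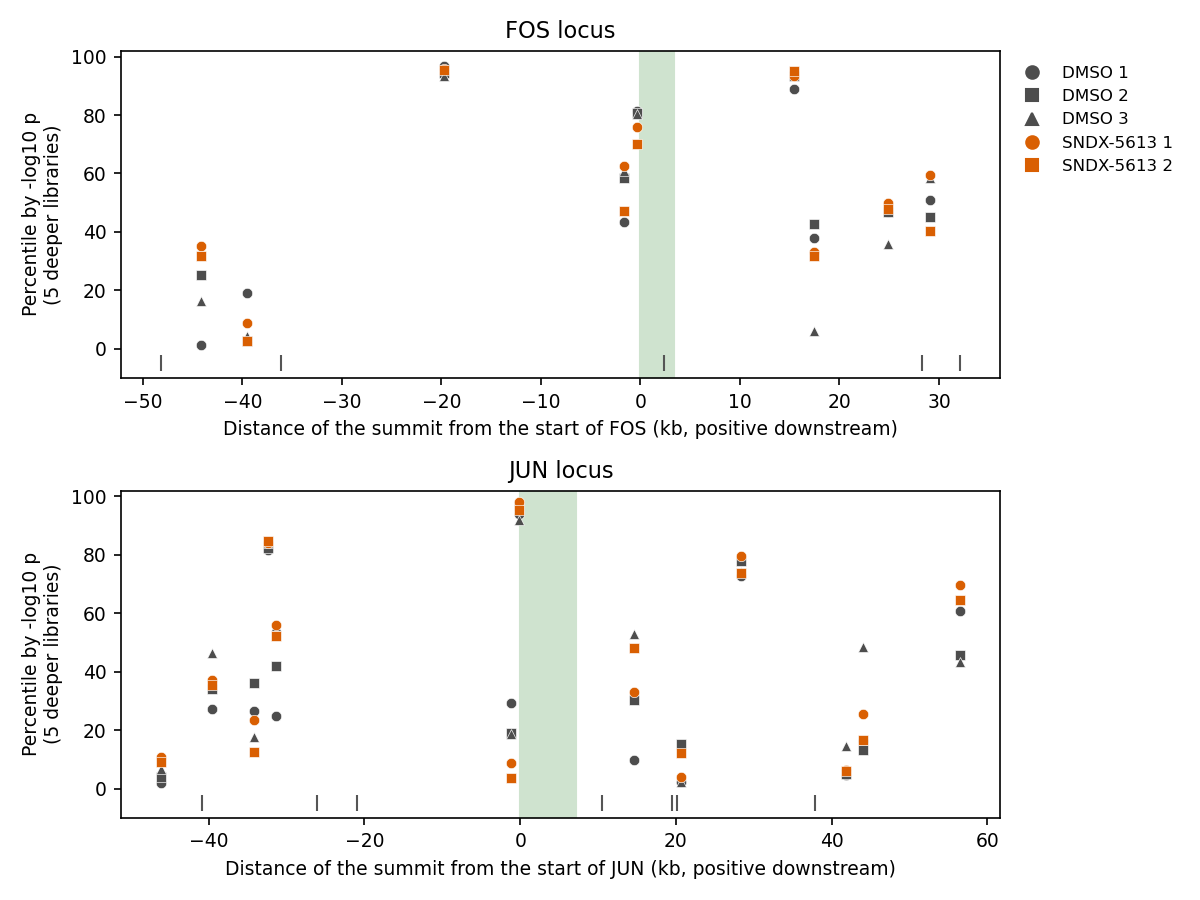
Percentile among the 59986 sites of the 5 deeper libraries (y axis) against the distance of each summit from the start of *FOS* (top) or *JUN* (bottom) in kb, positive in the direction of transcription. Points are libraries, the green band is the gene body, and ticks under 0 are sites not called in all of these 5 libraries. The FOS promoter points of SNDX-5613 (75.8 and 70.0) lie below those of DMSO (80.3 to 81.3), and the JUN site 56.5 kb downstream shows the opposite order.

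Without SNDX-5613 replicate 3, 115 sites at the loci had a peak in each of the other 5 libraries. Of these, 13 had both treated libraries above all controls and 12 below, or 11.3% and 10.4%, against 14.3% and 14.4% of 59986 sites, and limma called 0, against 0.578%. An unadjusted p under 0.05 was reached by 8 of the 115, or 6.96%, against 12.3% of the sites in that fit. No call in SNDX-5613 replicate 3 was made at 44 of them, or 38.3% against 44.3% over all sites. Of the 115 sites, 21 held an AP-1 element near the summit, of which 4 were higher and 0 lower. Over all 9226 such sites with an AP-1 element, 18.4% were higher and 12.1% lower. The 4 were the *JUN* downstream site and weaker sites 39.4 kb upstream of *ATF3*, 44.2 kb upstream of *FOS* and 47.1 kb downstream of *FOSL1*, the last in an exon of *SNX32*. Their percentiles among these sites ranged from 0.762 to 60.7 in DMSO and from 6.58 to 69.7 in SNDX-5613.

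By presence alone, 0 sites were gained (called in all 3 treated libraries and in no control, as were 0.147% of all sites) and 2 were lost (the opposite, as were 1.18%). Both lost sites were weak and lay in the *FOSL1* window. The first, chr11:65893411-65893555 in a *FOSL1* intron, had −log10 p of 5.72, 15.0 and 7.32 in DMSO, and the consensus sets of both groups held it. The second, chr11:65949067-65949234, lay in an intron of *TSGA10IP* and held an AP-1 element. A peak in SNDX-5613 replicates 1 and 2 and in no DMSO library was found at 3 sites (2.39% of all sites). In *FOS* this was a weak peak in an exon, chr14:75281023-75281358, within 1 kb of a *FOS* TSS, with −log10 p of 5.69 and 5.25. The others lay in an intron of *LINC01135* in the *JUN* window (−log10 p 9.0 and 13.2) and in an intron of *HOOK2* in the *JUNB* window. Consensus sets of both groups held the *LINC01135* site.

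Sequence elements of the sites were counted within 100 bp of the summit on both strands. AP-1 elements were found at 11 of the 71 sites, or 15.5% against 14.9% of all 33405 sites. CREs were found at 5, or 7.04% against 1.5%, namely at the promoters of *FOSB*, *JUND* and *VASP*, at the noncoding promoter upstream of *ATF3* and at a site 24.4 kb upstream of *FOSB*. CArG boxes were found at 5, or 7.04% against 1.03%, at the promoters of *FOS*, *FOSB*, *LINC01220*, *RTN2* and *CFL1* with *MUS81*. CCAAT boxes were found at 29.6% against 26.6%, and GC boxes (GGGCGG) at 47.9% against 35.0%, where 38 of the 71 sites were at promoters. Of the CArG box sites only the *FOS* promoter had separated groups, and of the CRE sites none. RefSeq promoter windows from 250 bases before to 50 after the start were given for 8 of the 10 members on hg38, all but *FOSL1* and *BATF3*. Among these, AP-1 letters were found in *FOSL2*, a CRE in *JUND*, and a CCAAT box in *JUN*, *JUNB*, *JUND* and *ATF3*, against 4.95%, 1.85% and 34.6% of 35116 promoters. The *ATF3* window covered its most upstream TSS. The strongest *ATF3* promoter site was the internal one, with 0 CCAAT boxes near its summit.

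Genes that act on or with AP-1 were taken from lists. As background for presence, 12692 of 20007 protein-coding genes had a promoter site in all 6 libraries. All 15 genes of the signalling list, which holds MAP kinases, their phosphatases and the CArG box factors, had a promoter site in all 6 libraries, and 1 was higher, 0 lower and 14 overlapped between groups, near the background of 7.13% and 7.55% of protein-coding promoters. The higher one was *ELK1*, a partner of SRF activated by ERK, at 86.5, 86.7 and 90.9 in DMSO and 92.7, 93.8 and 97.5 in SNDX-5613 (adjusted p = 0.392). *SRF* itself had 82.3, 82.2 and 79.6 in DMSO and 81.9, 85.8 and 90.4 in SNDX-5613, with overlapping groups. The groups also overlapped at *ELK4*, another partner in the list, with a difference of -0.424 points. The largest difference of the list was 16.3 points at *DUSP6*, where the groups overlapped too (adjusted p = 0.368 by limma). Of 15 bZIP partners and relatives, 14 had such a site and the groups overlapped at all 14, with *MAF* lacking one.

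Of 20 known AP-1 target genes, 14 had a promoter site in all 6 libraries, against 12692 of 20007 protein-coding genes. Of these 14 targets, 0 were higher, 1 lower and 13 overlapped, against the same background of higher and lower promoters. *PLAU*, which encodes the urokinase protease, was the lower one, with percentiles of 22.1, 29.7 and 24.3 in DMSO and 14.9, 13.7 and 14.3 in SNDX-5613 (adjusted p = 0.546). The collagenase and stromelysin genes *MMP13* and *MMP3* and the chemokine gene *CXCL8* had no promoter site in any library. By limma 0 genes of any list passed, against 26 of 12692 promoters, and an unadjusted p under 0.05 was reached by 2 signalling genes and by 0 bZIP partners or targets, against 1104 promoters. Median differences were -0.0589 points for signalling, 1.49 for bZIP partners and -0.982 for targets, against -0.381 over all protein-coding promoters.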

How the data were processed

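ATAC-seq peak lists of 6 HLF libraries (3 DMSO, 3 SNDX-5613) were analysed, with groups and replicate numbers from the labels. The submitters' processing notes name Trim Galore 0.6.7, Bowtie2 2.3.4.1, Picard 2.20.0, SAMtools, deepTools 3.5.4, MACS2 and hg38. Per the study's methods, replicates were combined into consensus sets with RMSPC. MACS2 settings were stated for a related assay only, and a Tn5 shift and a blacklist are not given in the sources used here. A missing shift of a few bases moves summits by little, while unfiltered reads can add peaks in repeats. The deposited lists hold for every summit a fold enrichment over local background, a −log10 p and a −log10 q, all computed by the authors. The deposited consensus sets were used as regions only. Peaks were called separately in each library. The authors' counts of reads were not used here, so depth in reads is unknown.

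Summits sharing an interval were merged into regions and regions overlapping by at least 1 bp into sites (GENCODE release 44, Python 3.11.15, pandas 2.3.3, SciPy 1.17.1, pysam 0.24.0). Normal scores of within-library ranks were fitted with limma 3.58.1 (R 4.3.3, trend) over all 33405 sites called in every library, without covariates, with Benjamini-Hochberg adjustment over all of them, after the code was tested on simulated data. Single values were compared by two-sided exact permutation tests. The study's methods describe a replicate as a dish divided between the groups, but the sources do not tie the replicate numbers to dishes, and same-numbered libraries showed little shared deviation (correlations from 0.000532 to 0.0164), so the main fit had no block. Sites were named if they were a member's strongest promoter or distal site, passed limma, or were gained or lost, and list genes if their groups did not overlap. *SRF*, *ELK4* and *DUSP6* were named outside this rule. Other sites, among them the sites with separated groups, those beside *FOS* and those with AP-1 elements, the CRE-like letters, and the backgrounds for regions per locus and for AP-1 element sites were chosen after their values were seen. Members and lists were chosen with earlier results of these data known. Alternatives were ranking by fold, percentiles within each full list, −log10 q of at least 3, fixed windows, 25 kb flanks, 3 kb promoters, equal numbers of regions, 50% coverage for presence, array weights, a replicate block, and leaving out each library. One marker gene and one promoter sequence are not reported here.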

Additional observations from a re-analysis of the deposited data

How the results depend on the processing

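By limma, 0 sites and 0 promoters of the loci passed under each alternative run, and the fit with the replicate number as a block also called 0 sites higher and 0 lower and changed no other call. Counts by non-overlap, the median difference and presence moved more. Ranking by fold gave 2 lower sites and a median difference of 7.77 points, turned *FOSL2* to 11.2 and *JUNB* to 0.868 points, and moved *FOS* to -7.98, *ATF3* to 18.2, *JUND* to 16.1, *FOSL1* to 13.9 and *JUN* to 11.9 points. Percentiles within each full list gave 0 higher sites, a median of -5.67 points, and turned *FOSB* to -2.03, *FOSL1* to -0.957, *JUN* to -1.57, *ATF3* to -0.0964 and *BATF3* to -3.92 points. A −log10 q of at least 3 gave a median of 2.47 points and 1 lost site, equal numbers of regions 0 lost, and 25 kb flanks 1 lost. Promoters within 3 kb gave *JUNB* 9.30 points, at another site. Leaving out each library gave 6 to 13 higher and 5 to 12 lower sites (fewer libraries have to be separated). The 13 and 12 were of 115 sites, without SNDX-5613 replicate 3, against 14.3% and 14.4% of all such sites. The other runs had 71 or 72 sites, with 6 to 8 higher and 5 to 8 lower. Shares over all sites are not given for these other runs. Leaving out each library also gave a median from -1.51 to 1.80 points, 0 to 3 gained and 2 to 5 lost sites. The difference in regions then ranged from -39.7 to 0.333 against -25.0 with all libraries, with 0.333 without SNDX-5613 replicate 3. Over the same settings *FOSL2* ranged from -1.44 to 0.0319, *JUN* from -0.910 to 3.95, *JUNB* from -11.5 to 3.37, *FOSB* from -0.944 to 7.5, *ATF3* from 2.34 to 6.27, *JUND* from 3.13 to 12.5, *FOS* from -16.8 to -7.83, *FOSL1* from 1.45 to 8.22 and *BATF3* from 1.65 to 8.10 points. *FOS* stayed negative and *JUND* positive under all 13. Of these, the replicate block and array weights cannot change a difference, and 3 kb promoters kept the same site at both genes. Where no cause is given, the cause was not tested.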
